A study of Mus musculus with 16 samples.

Results

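The genes of the mitochondrial ribosomal proteins were described in 16 mouse small cell lung cancers. They are the rows of the count table whose symbol begins with Mrpl or Mrps and a digit, 76 of 23224 rows. All 76 passed the filter on low counts, which kept 14857 rows. The tumors had either p107 (gene Rbl1, 8 tumors from 4 mice) or p130 (gene Rbl2, 8 tumors from 3 mice) mutated by CRISPR. Both groups shared the genotype Trp53-/-; Rb1-/- and the strain background mixed C57BL/6;129/Sv, so no tumor with intact Rb1 or without a guide was compared. Each tumor is called by its title, made of the guide (sgp107 or sgp130), a number read as the mouse, and T1 to T5 for tumors of that mouse. The p107 tumors held 13300223 to 34620979 estimated counts and the p130 tumors 12700334 to 21254514. The age of the mice and the Cre driver are not given in the labels. CRISPR mutates a gene in an unknown share of cells, and Rbl1 averaged 122 ± 65.2 CPM (counts scaled to library size) in p107 tumors and 85.8 ± 20.7 CPM in p130 tumors, while Rbl2 averaged 85.1 ± 25.4 CPM in p107 tumors, against 30.1 ± 13.97 CPM in the p130 tumors (SD, n = 8 each). Neither difference passed the adjusted threshold in edgeR's quasi-likelihood test (adjusted p = 0.464 and 0.1). Rbl2 was nevertheless lower in every p130 tumor (15.6 to 54.4 CPM) than in any p107 tumor (55.4 to 128 CPM). Such ranges without overlap were seen in 0.141% of all tested genes. The Rbl1 ranges overlapped, at 64.3 to 247 CPM in p107 tumors and 60.6 to 121 CPM in p130 tumors. The level of an mRNA does not show whether its gene was cut. The neuroendocrine markers of these cancers summed to 2897 to 10870 CPM in p107 tumors and 3435 to 11333 CPM in p130 tumors. Among hepatocyte and muscle markers, Alb stayed at or below 0.056 CPM and Apoa1 at or below 0.99 CPM. In the same list Ttr had 10.8 to 370 CPM in p107 tumors and 3.42 to 223 CPM in p130 tumors. Myh6 had 1.77 to 45.4 CPM in p107 tumors and 0.555 to 9.04 CPM in p130 tumors.

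Mitochondria carry their own ribosome, which translates the few membrane proteins encoded in mitochondrial DNA, all of them subunits of the respiratory chain and ATP synthase. Its RNAs come from mitochondrial DNA, but every one of its proteins is encoded in the nucleus, made in the cytosol and imported. Part of the proteins have counterparts in bacterial ribosomes, and the others are found only in mitochondria. Of the 76 genes, 49 encode proteins of the large subunit, which joins amino acids, 26 encode proteins of the small subunit, which reads the mRNA, and 1 (Mrps36) is not placed, since its product is now known as a subunit of the alpha-ketoglutarate dehydrogenase complex. Mrps18a and Mrps30 are counted with the large subunit, where their proteins sit despite the gene names. By ancestry, 48 have a bacterial homologue and 28 are mitochondria-specific.

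The members lie on 17 chromosomes, so their promoters show which sequence features such scattered genes have in common. RefSeq promoters of build GRCm38.p6 were matched by symbol to 67 members with 73 start sites, from 250 bases before to 50 bases after each start. They were searched on both strands for exact matches to CGCATGCGC (the core of NRF1 sites), CCGGAAG (a core that ETS factors such as GABP bind), AANATGGCG (YY1) and CACGTG (the E-box of MYC and its relatives). NRF1, GABP, YY1 and MYC are known regulators of nuclear genes for mitochondrial proteins. The 6 promoters printed here show each motif at least once and 1 member with none of them, in the stretch from 120 bases before to 30 bases after the start, with matches in capitals. Mrpl9 (chr3:94443216-94443365, plus strand) holds the NRF1 letters, Mrps18a (chr17:46110884-46111033, plus strand) and Mrpl27 (chr11:94653671-94653820, plus strand) hold the ETS letters before the start and the YY1 letters after it, Mrpl20 (chr4:155802758-155802907, plus strand) holds the E-box, and Mrps30 (chr13:118387223-118387372, minus strand) holds the YY1 letters. Mrpl12 (chr11:120484517-120484666, plus strand) holds no match anywhere in the window.
Mrpl9: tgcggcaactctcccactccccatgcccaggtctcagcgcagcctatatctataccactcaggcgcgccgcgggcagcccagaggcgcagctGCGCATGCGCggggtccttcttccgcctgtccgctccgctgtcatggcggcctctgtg
Mrps18a: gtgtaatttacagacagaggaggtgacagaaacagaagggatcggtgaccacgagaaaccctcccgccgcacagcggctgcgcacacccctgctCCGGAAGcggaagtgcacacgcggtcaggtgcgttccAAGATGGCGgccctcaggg
Mrpl27: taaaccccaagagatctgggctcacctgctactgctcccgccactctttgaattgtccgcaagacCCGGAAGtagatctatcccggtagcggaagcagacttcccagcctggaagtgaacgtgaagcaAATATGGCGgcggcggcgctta
Mrpl20: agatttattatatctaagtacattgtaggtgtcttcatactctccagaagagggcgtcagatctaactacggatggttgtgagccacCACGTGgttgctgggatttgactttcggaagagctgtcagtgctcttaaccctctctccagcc
Mrps30: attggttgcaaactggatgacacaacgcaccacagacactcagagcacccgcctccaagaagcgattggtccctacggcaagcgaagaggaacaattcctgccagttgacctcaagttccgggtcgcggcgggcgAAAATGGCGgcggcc
Mrpl12: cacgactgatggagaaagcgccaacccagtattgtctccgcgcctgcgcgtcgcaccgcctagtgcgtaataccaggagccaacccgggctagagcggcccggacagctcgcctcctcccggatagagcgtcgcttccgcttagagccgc
The ETS letters were the most frequent, in 24 of the 73 member promoters (32.9%), against 8.86% of all 32851 promoters of the table and 11.6% of the 21262 promoters of protein-coding genes. The NRF1 letters stood in 7 member promoters (9.59%), against 1.75% of all and 2.35% of protein-coding promoters. The YY1 letters stood in 10 (13.7%), against 2.38% and 3.12%. The E-box was about as frequent in members (7 promoters of 5 members, 9.59%) as in all promoters (7.15%) and in protein-coding ones (7.84%). At least 1 of the 4 motifs was found in 39 member promoters (53.4%), against 17.96% and 21.9%. In 3 member promoters 2 matches overlapped, as in Mrpl9, where the capitals cover a palindrome that matches on both strands. These shares describe letters and no binding.

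The members were expressed in every tumor at low to moderate levels. Averaged over the 16 tumors, they lay between 8.66 CPM (Mrps6) and 63.6 CPM (Mrpl50). Their summed share of all counts was 0.193% to 0.240% in p107 tumors, against 0.203% to 0.337% in p130 tumors. Per kilobase of coding sequence, which allows genes to be compared, the median member had 40.9 CPM per kilobase. The highest levels on this scale were 159 for Mrpl33, 133 for Mrpl50, 132 for Mrpl51 and 111 for Mrps33. The lowest were 15.4 for Mrps27, 17.6 for Mrpl46, 19.2 for Mrps28 and 20.8 for Mrpl38. The highest and the lowest member were 10.3-fold apart on this scale. Mrpl33 encodes a very small protein, and short coding sequences with long untranslated parts raise a value per coding kilobase.

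The 16 tumors differed little in the level of the whole set, with 1 exception. The mean log2(CPM + 1) over the 76 members was 4.85 and 4.77 in tumors sgp107_6627T1 and T2, 4.67 and 4.58 in sgp107_6629T1 and T2, 4.61 and 4.67 in sgp107_6630T2 and T3, and 4.87 and 4.68 in sgp107_6631T1 and T2. Among p130 tumors it was 5.38, 4.66 and 4.73 in sgp130_6637T1, T2 and T3, 4.67, 4.65 and 4.94 in sgp130_6638T3, T4 and T5, and 4.77 and 4.64 in sgp130_6697T1 and T2. Tumor sgp130_6637T1 stood alone at the top, while 2 other tumors of the same mouse lay among the rest. The groups averaged 4.71 ± 0.11 for p107 and 4.80 ± 0.25 for p130 (SD, n = 8 each), and without sgp130_6637T1 the p130 mean was 4.72 ± 0.11 (SD, n = 7). Of the sum of squares of this level, 6.12% lay between genotypes, 21.8% between mice of a genotype and 72.1% between tumors of a mouse. The 3 tumors of mouse sgp130_6637 spanned 0.72, and those of the other 6 mice between 0.06 and 0.29. In bulk tumor RNA, fewer cells of a type and less RNA per cell cannot be told apart.

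**Figure D1:**
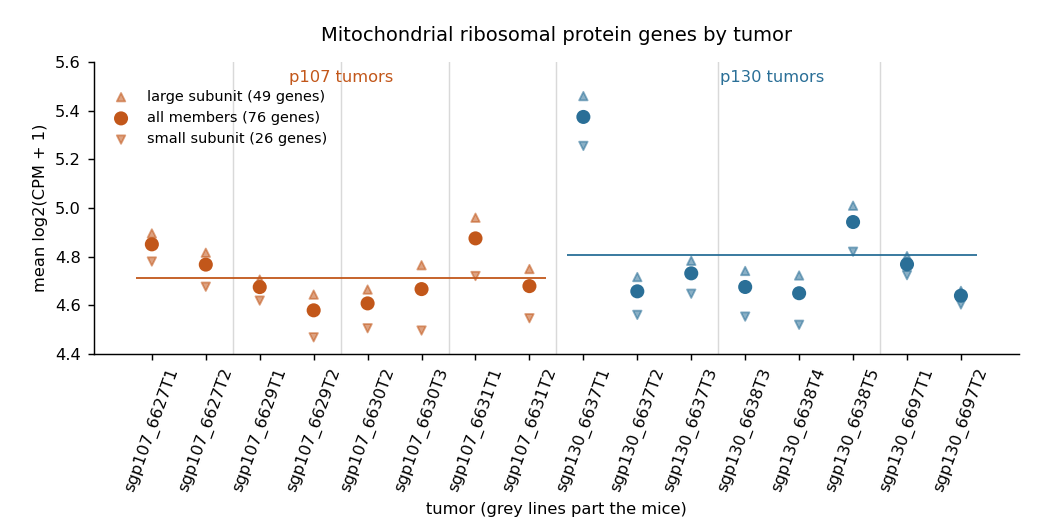
Mean log2(CPM + 1) of all 76 members (circles), of the 49 large subunit genes (upward triangles) and of the 26 small subunit genes (downward triangles) in each of 16 tumors, with horizontal lines at the group means. Tumor sgp130_6637T1 lies at 5.38 for all members, and the other 15 tumors lie between 4.58 and 4.94.

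Both subunits followed each other. The large subunit mean exceeded the small subunit mean in all 16 tumors, by 0.09 to 0.27 in p107 tumors, against 0.06 to 0.21 in p130 tumors on the log2 scale. In sgp130_6637T1 the large subunit genes averaged 5.46 and the small subunit genes 5.26, against means of 4.78 ± 0.11 and 4.62 ± 0.11 in the other 15 tumors (SD, n = 15).

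In sgp130_6637T1 the mRNAs of nearly all members were higher. Of the 76 members, 73 lay above their mean in the other 15 tumors, where 49.4% of all tested genes did, and the median member was 0.67 higher on the log2(CPM + 1) scale (1.59-fold; all tested genes −0.01). For 51 members it was the highest of the 16 tumors, which was so for 14.1% of all tested genes. Mrps6, a small subunit protein with a bacterial homologue, had 24.5 CPM there, against 2.96 to 10.04 CPM in p107 tumors and 6.05 to 10.5 CPM in the other p130 tumors. Mrpl20, a large subunit protein known in bacteria for its part in assembly, had 94.4 CPM, against 21.1 to 59.9 CPM in p107 tumors and 20.7 to 45.7 CPM in the other p130 tumors. Mrpl12, which forms the stalk of the large subunit and also binds the mitochondrial RNA polymerase, had 71.5 CPM, against 22.1 to 41.8 CPM in p107 tumors and 22.3 to 47.2 CPM in the other p130 tumors. Mrpl11, at the base of that stalk, had 56.1 CPM, against 14.04 to 42.9 CPM in p107 tumors and 13.7 to 31.0 CPM in the other p130 tumors. In all 4 genes this tumor exceeded each of the other 15.

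The 3 members that lay below their mean in sgp130_6637T1 were all mitochondria-specific and all on chromosome 13. Mrps30 had 22.6 CPM there, the lowest of 16 tumors, against 25.001 to 36.8 CPM in p107 tumors and 26.8 to 42.6 CPM in the other p130 tumors. Mrps27, which belongs to the pentatricopeptide repeat proteins, had 16.5 CPM against a mean of 19.3 CPM over the other 15, and Mrps36 had 18.3 CPM against 22.1 CPM. All 48 members with a bacterial homologue were above their mean (median difference 0.73), and 25 of the 28 mitochondria-specific ones (0.62). Mrps36 has near-identical pseudogene copies, as do Mrpl23, Mrpl27 and Mrpl48, so their counts are uncertain.

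**Figure D2:**
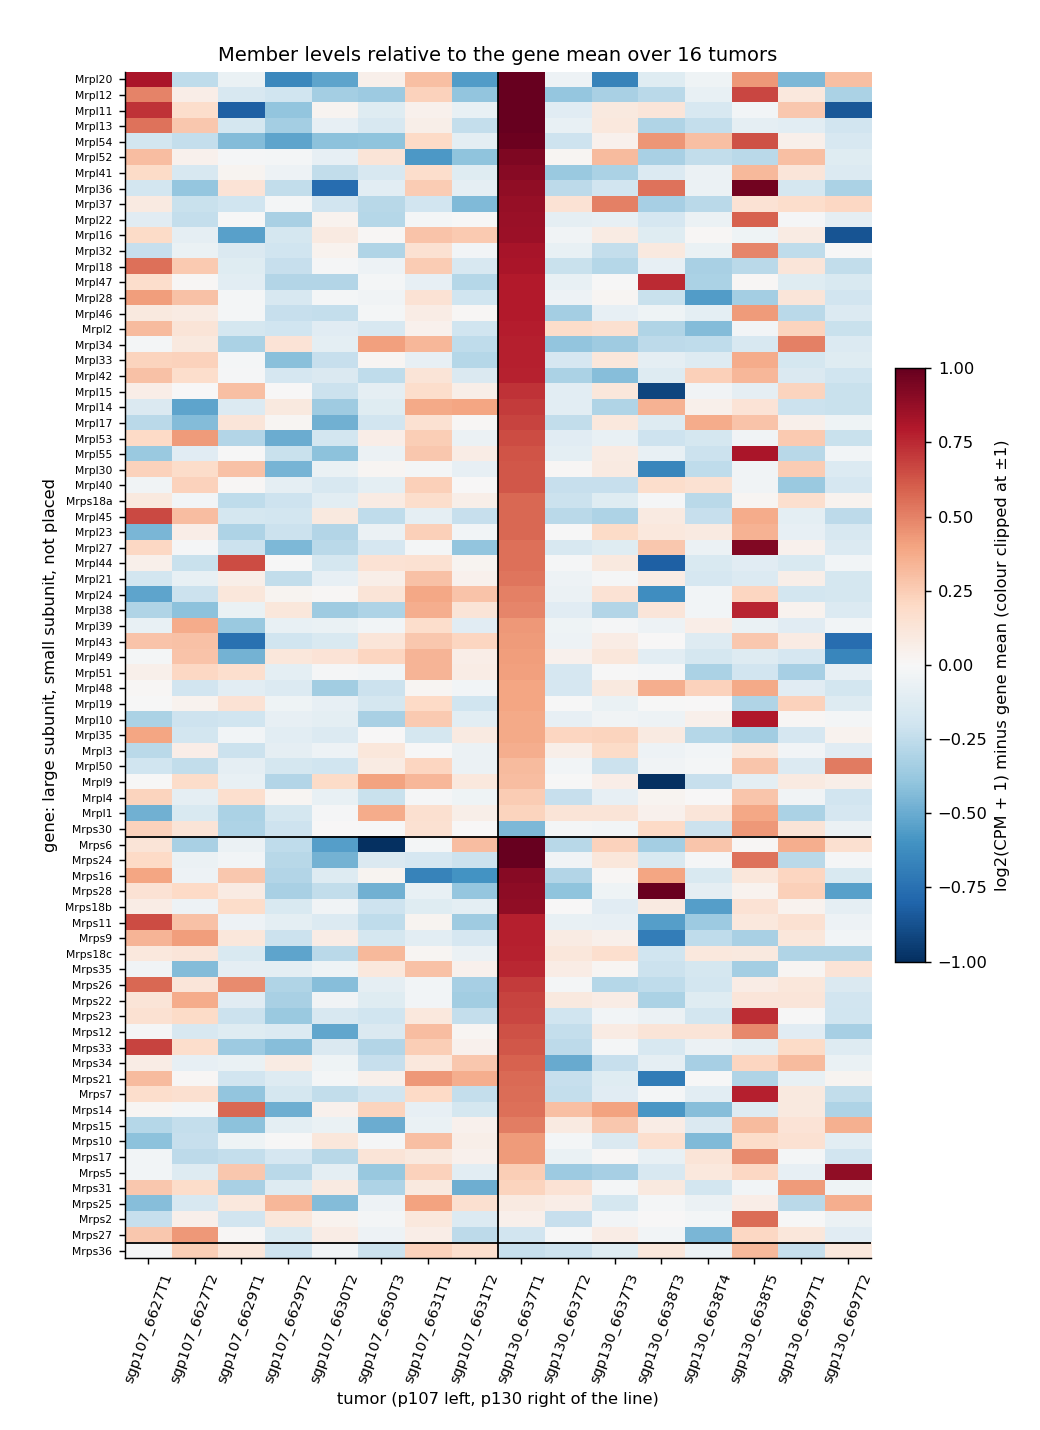
Each row is a member, each column a tumor (p107 left of the vertical line, p130 right of it), and colour gives log2(CPM + 1) minus the gene's mean over 16 tumors, clipped at ±1. Rows are grouped as large subunit, small subunit and Mrps36, and sorted within these by the difference in sgp130_6637T1, whose column is red for 73 of 76 members.

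Other genes of protein synthesis and respiration moved with the members in this tumor. Of 76 tested cytosolic ribosomal protein genes (of 80 in the table), 75 were above their mean there, with a median difference of 0.85, and of 82 tested respiratory chain and ATP synthase genes (of 86), 77 were (0.71). The difference depended on transcript length across all genes. Over 14094 genes with a known length, Spearman's rho between the difference in sgp130_6637T1 and length was −0.43, and in the other 15 tumors it lay between −0.03 and 0.14; the genes share the libraries, so these are descriptions. Members are short, with a median transcript of 1284 bases against 3015 for all genes with a length. Among genes of up to 1000 bases, the median difference was 0.59 for all genes and 0.82 for the 25 members. From 1000 to 2000 bases it was 0.30 for all genes and 0.66 for the 28 members. From 2000 to 3000 bases it was 0.08 and 0.53 (6 members), from 3000 to 5000 bases −0.14 and 0.43 (14 members), and above 5000 bases −0.46 and 0.45 (3 members). The members were thus above genes of like length in each of the 5 classes, by 0.23 and 0.36 in the shortest 2, and the 3 classes of longer transcripts hold few members.

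**Figure D3:**
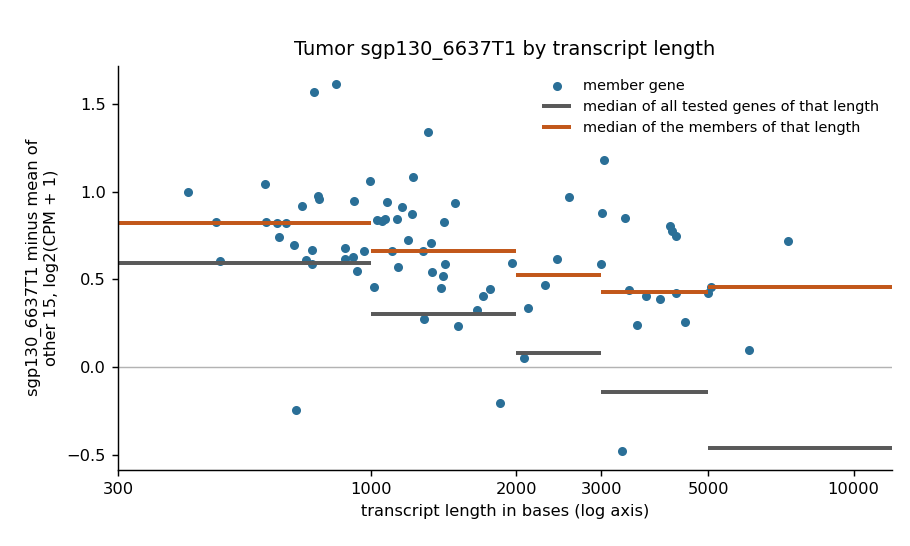
Difference in log2(CPM + 1) between tumor sgp130_6637T1 and the mean of the other 15 tumors (vertical axis) against transcript length (log axis) for each member, with medians of 5 length classes for all tested genes (grey lines) and for members (orange lines). The orange line lies above the grey one in every class, by 0.23 in the shortest (25 members) and 0.91 in the longest (3 members).

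Further values set sgp130_6637T1 apart. Myc, a known regulator of ribosome genes, had 41.2 CPM there and 3.91 to 16.3 CPM in the other 15 tumors. Of 11 regulators of mitochondrial genes, Myc among them, 5 were above their mean there, and the median difference was −0.09. Esrra was also highest there (21.8 CPM against 5.56 to 14.9 CPM), and Gabpa was lowest (75.6 CPM against 83.3 to 164 CPM). Of 6 proliferation markers, 3 were above their mean there and 3 below, and their sum of 2823 CPM lay within the range of the other 15 tumors. Among them Mki67 was lowest there, at 622 CPM against 902 to 1991 CPM, while the replication gene Pcna had 850 CPM against 493 to 934 CPM. The neuroendocrine genes Insm1 (233 CPM against 277 to 592 CPM) and Chga (269 CPM against 291 to 1748 CPM) were lowest there too. The 8 neuroendocrine markers summed to 3435 CPM, and 1 of them lay above its mean. That marker, Uchl1, was highest there, at 659 CPM against 206 to 543 CPM. The summed markers of endothelium, macrophages, fibroblasts, alveolar and airway cells lay within the range of the other 15 tumors, though single markers could be extreme. The airway gene Foxj1 was highest there (33.6 CPM against 3.08 to 20.9 CPM), and the alveolar gene Sftpb was lowest (28.56 CPM against 28.59 to 221 CPM). The tumor's share of ribosomal Rn45s counts, 1.04%, lay within 0.563% to 8.22%. The part of these differences in the members' levels was not tested.

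Tumor sgp130_6638T5 came next, at 4.94, but there the members did not move as 1 block. Of the 76 members, 50 lay above their mean of the other 15 tumors (median difference 0.15), while only 23 of 76 cytosolic ribosomal protein genes (−0.12) and 34 of 82 respiratory genes (−0.09) did. For 13 members it was the highest tumor, and 6 of these lie on chromosome 11 and 3 on chromosome 13. Members were therefore sorted by chromosome, with RefSeq assignments of build GRCm38.p6, a grouping chosen after the values were seen. For 11 chromosomes with at least 4 members in 16 tumors, 176 pairs of chromosome and tumor, the median difference from the other 15 tumors was taken over the members and over the other tested genes of that chromosome. In 6 pairs the other genes had a median past 0.4 in size, and in the remaining 170 it lay between −0.32 and 0.30. Some left-out chromosomes with 2 members passed that size too. On chromosome 8 in sgp107_6630T3 the other genes were at −0.43, but 1 member was above its mean and 1 below. On chromosome 14 they were at −0.63 in sgp107_6631T1 and −0.50 in sgp107_6631T2, and 2 of 2 members were below. On chromosome 8 in sgp130_6697T1 they were at 0.42, and 2 of 2 members were above.

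On chromosome 11 all 10 members were above their mean in sgp130_6638T5, with a median difference of 0.80, as were 78.3% of the 1087 other genes (median 0.54). Mrpl27, which reaches toward the catalytic centre of the large subunit in bacteria, had 49.9 CPM there against 18.6 to 38.3 CPM in the other 15 tumors. Mrpl10, which anchors the stalk, had 85.5 CPM against 38.7 to 63.7 CPM. Mrpl38 and Mrpl55 of the large and Mrps7 and Mrps23 of the small subunit were also highest there, and Mrpl12, Mrpl22 and Mrps24 were second to sgp130_6637T1.

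On chromosome 1 all 5 members (Mrpl15, Mrpl30, Mrpl44, Mrps9 and Mrps14) had their lowest level of 16 tumors in sgp130_6638T3, with a median difference of −0.74, and 87.6% of the 765 other genes were below their mean (median −0.64). Mrpl44, which has an RNase III-like fold, had 12.97 CPM there against 20.1 to 37.6 CPM in the other 15. The same 5 genes were all above their mean in sgp107_6629T1 (median 0.32), as were 83.7% of the other genes of the chromosome (median 0.48), and Mrpl44 reached its maximum of 37.6 CPM there.

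On chromosome 19 all 5 members were below their mean in sgp130_6697T2 (median −0.81), with 85.7% of the 446 other genes (median −0.58). In sgp107_6629T1, 4 of the 5 were below it (median −0.58), with 85.9% of the other genes (median −0.56). Mrpl11 had 14.04 CPM in sgp107_6629T1 and 13.7 CPM in sgp130_6697T2, Mrpl16 had 10.8 and 8.47 CPM, Mrpl43 had 14.8 and 14.7 CPM and Mrpl49 had 36.0 and 31.7 CPM. These were the 2 lowest tumors of the 16 for each of the 4 genes, 1 of each genotype.

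On chromosome 3 the members of sgp130_6638T3 split by position. Mrps28 and Mrpl47, which lie toward the start of the chromosome, had 21.1 and 29.4 CPM, against 6.68 to 19.8 CPM and 13.5 to 30.4 CPM in the other 15 tumors. Farther along, Mrpl24 had 24.1 CPM, Mrpl9 had 14.3 CPM and Mrps21 had 15.2 CPM, each the lowest of the 16. The other genes were divided in the same way. Of 63 genes up to Mrpl47, 19.05% were below their mean (median difference 0.48), and of 426 genes from Mrpl24 to the end, 87.3% were (−0.59). Over the whole chromosome, 76.9% of the 642 other genes were below it. The order of the genes is from the RefSeq annotation, and no copy number of these chromosomes was analysed here.

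**Figure D4:**
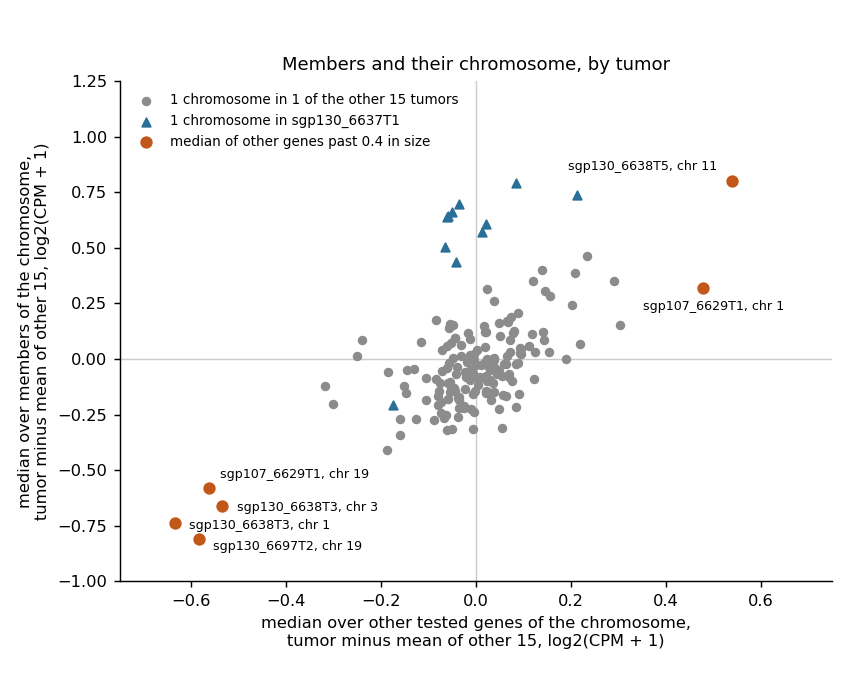
Each point is 1 of 11 chromosomes in 1 of 16 tumors, placed by the median difference of its other tested genes (horizontal) and of its members (vertical) between that tumor and the mean of the other 15, in log2(CPM + 1). The 6 orange points, where other genes passed 0.4 in size, have members displaced to the same side, from −0.81 to 0.80, and the triangles of sgp130_6637T1 lie between 0.44 and 0.79 for members except on chromosome 13, at −0.21.

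Between the genotypes no member passed the adjusted threshold. With edgeR's quasi-likelihood test over 14857 genes, 0 of 76 members had an adjusted p under 0.05, against 0.0269% of all tested genes. At an unadjusted p under 0.05 there were 5 members (6.58%), all lower in p107 tumors, against 11.8% of all genes and 5.61% that were lower in p107. In direction, 58 of the 76 were lower and 18 higher in p107 tumors, with a median log2 fold change of −0.11 (quartiles −0.24 and 0.00), against 50% of all genes lower and a median of 0.00. No member had p107 and p130 ranges that did not overlap, as 0.141% of all genes had. Without sgp130_6637T1 the members had about as many higher as lower values: 42 of 76 were higher in p107 and 34 lower, against 51.1% of all genes higher, and the median was 0.01 for members and 0.01 for all genes. The Y-linked gene Kdm5d was over 1 CPM in all 8 p107 tumors and in 2 of the p130 tumors, and among these 10 tumors 43 members were higher in p107 (median 0.02). Endothelial markers summed to 108 to 197 CPM in p107 tumors and 57.7 to 116 CPM in p130 tumors, and 5 of 6 had unadjusted p under 0.05. B cell markers summed to 2.15 to 42.0 CPM in p107 and 1.06 to 3.34 CPM in p130 tumors, T and NK cell markers to 3.08 to 68.6 CPM in p107 and 2.67 to 7.31 CPM in p130 tumors. Red blood cell markers summed to 7.86 to 537 CPM in p107 and 3.77 to 46.6 CPM in p130 tumors. The part of these cells in the members' levels was not tested.

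**Figure D5:**
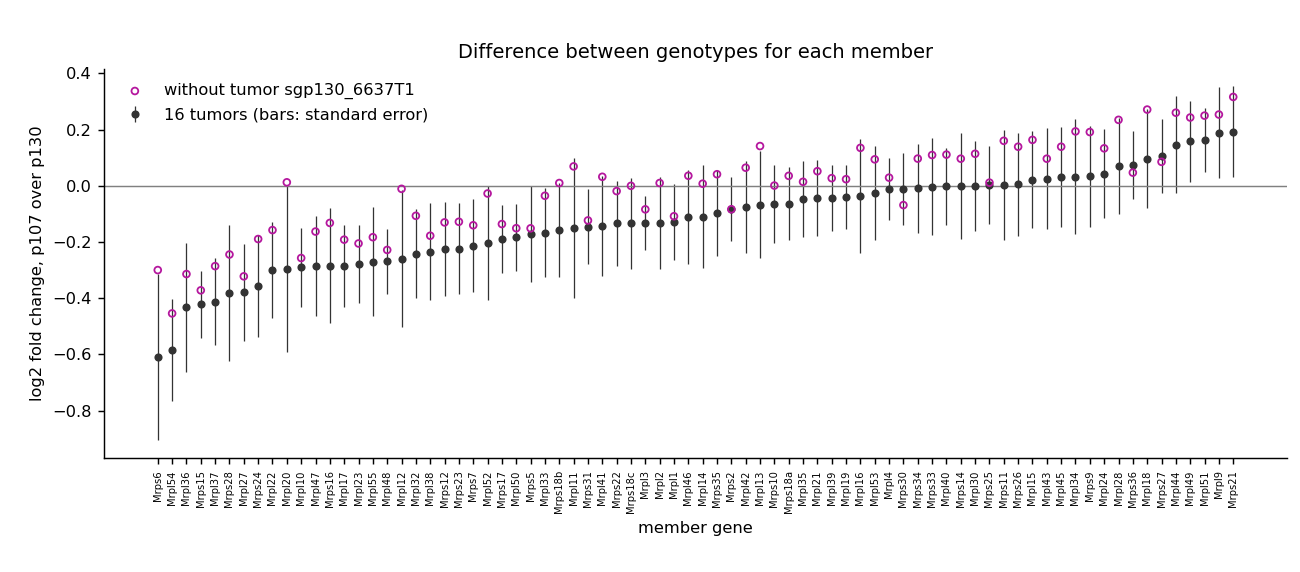
Log2 fold change of p107 over p130 tumors for each member from all 16 tumors (filled points, bars are the standard error) and without tumor sgp130_6637T1 (open circles). With all tumors 58 of 76 points lie below 0, and without that tumor 34 do.

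Mrps15, a small subunit protein whose bacterial homologue binds ribosomal RNA early in assembly, had the smallest p. Its lowest, median and highest values were 17.2, 21.8 and 25.3 CPM in p107 tumors and 22.2, 28.5 and 35.5 CPM in p130 tumors. The groups overlapped by 1 p130 tumor, and 7 of 8 p130 tumors lay above every p107 tumor. The log2 fold change was −0.42 ± 0.12 (SE; 95% interval −0.67 to −0.17) with an adjusted p of 0.212, and −0.37 without sgp130_6637T1 (adjusted p = 0.289). An exact two-sided permutation test gave p = 0.00155 over all splits of the tumors and p = 0.0571 over the 35 splits of the 7 mice, where the smallest possible is 0.0286. Its adjusted p ranged from 0.0423 (DESeq2) to 0.773 (counts summed per mouse) over the alternatives.

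Mrpl54, a mitochondria-specific large subunit protein, had 12.9, 15.04 and 21.97 CPM (lowest, median, highest) in p107 tumors and 16.3, 21.7 and 38.4 CPM in p130 tumors. The ranges overlapped, with 4 p130 tumors above every p107 tumor. Its log2 fold change was −0.59 ± 0.18 (SE; adjusted p = 0.246), and −0.45 without sgp130_6637T1. Mrpl37, also mitochondria-specific, averaged 35.1 ± 4.08 CPM in p107 tumors, against 46.8 ± 13.5 CPM in the p130 tumors (SD, n = 8 each), with 73.7 CPM in sgp130_6637T1. Its log2 fold change of −0.41 (adjusted p = 0.31) became −0.29 without that tumor and −0.17 without mouse sgp130_6637. Mrpl48, of the central protuberance, averaged 35.6 ± 3.15 CPM in p107 tumors, against 42.9 ± 7.52 CPM in the p130 tumors (SD, n = 8 each; log2 fold change −0.27, adjusted p = 0.377), and its log2 fold change was 0.03 among the 10 tumors with Kdm5d over 1 CPM. Mrpl27 averaged 23.1 ± 3.71 CPM in p107 tumors, against 30.1 ± 9.54 CPM in the p130 tumors (SD, n = 8 each; log2 fold change −0.38, adjusted p = 0.399). Without sgp130_6638T5, where the genes of its chromosome were high, the log2 fold change of Mrpl27 was −0.24.

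The members highest in p107 relative to p130 differed by less. Mrpl51 averaged 53.4 ± 5.51 CPM in p107 tumors, against 47.7 ± 8.67 CPM in the p130 tumors (SD, n = 8 each; log2 fold change 0.16, adjusted p = 0.596). The next 4 by p were Mrps21 (0.19), Mrpl9 (0.19), Mrpl49 (0.16) and Mrpl44 (0.15), with adjusted p between 0.667 and 0.773 and overlapping groups. For Mrps21, Mrpl9 and Mrpl44 the lowest tumor was sgp130_6638T3, and for Mrpl49 it was sgp130_6697T2, the tumors in which the other genes of chromosomes 3, 1 and 19 were low. Without sgp130_6638T3 the log2 fold changes were 0.11 for Mrps21, 0.08 for Mrpl9 and 0.05 for Mrpl44, and without sgp130_6697T2 that of Mrpl49 was 0.09.

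Over all 16 tumors the counts were alike in both subunits. In p107 tumors 38 of 49 large subunit genes (median −0.11) and 20 of 26 small subunit genes (median −0.13) were lower, and by ancestry 39 of 48 with a bacterial homologue (−0.13) and 19 of 28 mitochondria-specific ones (−0.03). The 3 Mrps18 genes, paralogs of 1 bacterial protein, showed no difference past the threshold. Mrps18a averaged 23.7 ± 2.61 CPM in p107 tumors, against 24.8 ± 5.22 CPM in the p130 tumors, Mrps18b 18.4 ± 1.77 CPM in p107 and 20.5 ± 6.75 CPM in p130, and Mrps18c 37.1 ± 6.71 CPM in p107 and 40.7 ± 11.2 CPM in p130 (SD, n = 8 each). All 3 were highest in sgp130_6637T1, at 36.3, 35.9 and 65.5 CPM. Without that tumor the large subunit had 29 of 49 genes higher in p107 (median 0.02) and the small subunit 12 of 26 (median −0.01).

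The median spread of members among tumors lay below that of all tested genes. The SD of log2(CPM + 1) over 16 tumors had a median of 0.30 over members and 0.39 over all tested genes. It was similar to the members in cytosolic ribosomal protein genes (0.32) and in respiratory chain and ATP synthase genes (0.32). Among members it was largest in Mrpl20 (0.57), Mrps6 (0.56), Mrpl11 (0.48) and Mrpl12 (0.46). The steadiest were Mrpl3 (0.15), Mrpl4 (0.16), Mrpl19 (0.18) and Mrps2 (0.18), all with a bacterial homologue. In Mrpl3 the lowest, median and highest values were 38.8, 45.1 and 50.7 CPM in p107 tumors and 43.3, 47.5 and 60.7 CPM in p130 tumors. For the median member 3.81% of the sum of squares lay between genotypes, 34.9% between mice and 52.2% between tumors of a mouse, against 5.22%, 41.6% and 48.0% for the median gene.

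Much of the co-variation came from 1 tumor. Pearson's r of a member with the mean of the other members had a median of 0.65 over 16 tumors and 0.41 over the 15 without sgp130_6637T1, and 59 and 30 members were over 0.5. The highest were Mrpl12 (0.93, and 0.87 over 15 tumors), Mrpl41 (0.90 and 0.72), Mrpl46 (0.90 and 0.75) and Mrpl33 (0.88 and 0.74). The lowest were Mrps30 (−0.13), Mrps36 (−0.03), Mrps25 (0.02) and Mrps27 (0.09). Over 15 tumors Mrps30 was at 0.77, Mrps36 at 0.50 and Mrps27 at 0.58, while Mrps25 stayed at −0.13. Pairs of members on the same chromosome had a mean r of 0.54 over 16 tumors (176 pairs) and those on different chromosomes 0.36 (2674 pairs), and over 15 tumors the means were 0.38 and 0.14. Pairs of the same subunit and of different subunits were alike over 15 tumors (0.15 and 0.15), where pairs with Mrps36, which is not placed, were counted as different. Cytosolic ribosomal protein genes held together more, with a median r with their own set of 0.82 over 16 and 0.74 over 15 tumors, and respiratory genes had 0.77 and 0.64. The tumors share mice and libraries, so these values describe the 16 tumors.

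Outside the members, the genes most like their mean level over 16 tumors were Timm13 (r = 0.94), Uqcr11 (0.94), 1500032L24Rik (0.94), Psmd13 (0.93), Rpl27 (0.93) and Ndufb9 (0.92). Timm13 is a chaperone of the space between the mitochondrial membranes, Uqcr11 and Ndufb9 belong to the respiratory chain, Psmd13 to the proteasome and Rpl27 to the cytosolic ribosome. Timm13 had 56.9 CPM in sgp130_6637T1 and 17.0 to 35.1 CPM in the other 15 tumors, and its r over those 15 was 0.91.

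The rest of the mitochondrial translation pathway, other mitochondrial genes and their regulators were read from the same fit. No gene of these 7 lists passed the adjusted threshold. The counts of lower genes stand against 50% of all genes, and those of unadjusted p under 0.05 against 11.8%. Since sgp130_6637T1 weighed on the members' direction, each count of lower genes is also given without it, where 51.1% of all genes were higher. Of 7 mitochondrial ribosome proteins named otherwise, 6 were lower in p107 (median log2 fold change −0.31) and 2 had an unadjusted p under 0.05. All 7 were above their mean in sgp130_6637T1 (median difference 0.91), and without it 6 were lower (−0.18). Mrp63 averaged 17.3 ± 3.02 CPM in p107 tumors, against 22.8 ± 5.80 CPM in the p130 tumors (SD, n = 8 each; adjusted p = 0.332), and Aurkaip1 23.2 ± 6.45 CPM in p107 and 33.1 ± 14.5 CPM in p130 (adjusted p = 0.422), with maxima in sgp130_6637T1 of 36.7 and 63.0 CPM. Of 24 tested assembly and rRNA maturation genes, 20 were lower (−0.16) and 0 had an unadjusted p under 0.05, while 22 were above their mean in sgp130_6637T1 (0.36), and without it 17 were lower (−0.11). Of 12 translation factors 11 were lower (−0.20) and 0 had such a p, while 9 were above their mean in sgp130_6637T1 (0.34), and without it 12 were lower (−0.17). Tufm, the elongation factor that brings tRNA to the ribosome, averaged 43.0 ± 6.42 CPM in p107 tumors, against 50.4 ± 9.21 CPM in the p130 tumors, and its exchange factor Tsfm 11.8 ± 2.18 CPM in p107 and 14.3 ± 3.12 CPM in p130 (SD, n = 8 each; adjusted p = 0.492 and 0.5).

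Among 19 mitochondrial tRNA synthetases 12 were lower and 7 higher, and 2 had an unadjusted p under 0.05, 1 in each direction. Without sgp130_6637T1, 10 were lower. Of 14 genes of mitochondrial DNA and RNA maintenance 11 were lower (9 without that tumor), and 2 had an unadjusted p under 0.05. One was Tfb2m, which opens mitochondrial promoters for transcription, with 31.5 ± 3.75 CPM in p107 tumors, against 26.5 ± 2.16 CPM in the p130 tumors (SD, n = 8 each; adjusted p = 0.338). All 15 import and protease genes were lower in p107 (median log2 fold change −0.13), of which 13 were above their mean in sgp130_6637T1 (median difference 0.50), and without that tumor 12 were lower (−0.04). Pmpcb, a subunit of the peptidase that removes import signals, had the smallest p of them, with 54.6 ± 3.52 CPM in p107 tumors, against 67.9 ± 10.98 CPM in the p130 tumors (SD, n = 8 each; log2 fold change −0.32, adjusted p = 0.269). Of 11 regulators, 5 were higher and 6 lower, and without that tumor 7 were higher and 4 lower. Mycn averaged 15.9 ± 9.05 CPM in p107 tumors, against 5.85 ± 4.61 CPM in the p130 tumors (SD, n = 8 each; log2 fold change 1.44, adjusted p = 0.273), with 1.89 CPM in sgp130_6637T1, the tumor of highest Myc.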

How the data were processed

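RNA of 16 tumors was sequenced, 8 with p107 and 8 with p130 mutated. Per the labels' protocols, tumors were dissected and frozen, and a KAPA mRNA kit made libraries from total RNA. The authors deposited estimated counts per gene; the submitters' processing notes name RSEM 1.2.12, Bowtie 1.0.1 and build mm9. Which annotation and strand setting were used is not given in the sources. Reads of overlapping or antisense genes may therefore be mixed, and counts of near-identical copies are shared out by RSEM. The normalized signal that the authors also deposited is, from its values, the estimated count times a constant per tumor, and was used as an alternative.

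Counts were rounded and tested as p107 minus p130 with edgeR 4.0.16 (R 4.3.3; filterByExpr, TMM, robust quasi-likelihood). P-values were adjusted by Benjamini-Hochberg over all 14857 genes tested, with a threshold of 0.05. Levels are CPM with TMM factors, and the level of a set is the mean of log2(CPM + 1). The test was checked on simulated counts of independent tumors, which cannot show the effect of tumors sharing a mouse. Exact two-sided permutation tests compared log2(CPM + 1) over tumors or mouse means. The number in a title was taken for the mouse, and each mouse has 1 genotype, so tumors of a mouse are not independent and p-values over tumors can be too small. Transcript and coding lengths (GENCODE, 94.9% of tested genes matched), chromosomes (12902 genes matched) and promoters (RefSeq) are of build GRCm38, and no coordinates of the mm9 counts are given.

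The members and lists were chosen with earlier results of these data known. Named members are the 5 of smallest p in each direction, the 4 highest and the 4 lowest in SD, in correlation with the other members and in level per coding kilobase, and the Mrps18 genes. From other lists up to 3 genes of smallest p could be named, and from outside them the 6 genes most like the members. Other genes, and the sorting by chromosome, were chosen after their values were seen. The list genes Malsu1, Mtrfr and Slirp were not analysed here.

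Alternatives were DESeq2 1.42.0, upper quartile factors, no filter, the normalized table (limma 3.58.1), counts summed per mouse, voom with a random effect of the mouse (correlation of tumors of a mouse 0.201), a pseudocount of 5, a shorter promoter window, the tumors with Kdm5d over 1 CPM, and each mouse and tumor left out in turn. Precision is limited by counting in low genes and by the number of mice.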

Additional observations from a re-analysis of the deposited data

Results flagged for a closer look

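In 66 groups of 8 tumors the gap between the highest or lowest value and its nearest neighbour was divided by the range. The ratio was judged by Dixon's criterion at the 95% level. A tumor stood apart in 13 of the groups, and in 11 of the 13 it was sgp130_6637T1. By chance about 1 in 20 groups would be marked, but this count cannot be set against that share: the genes share the tumors, and many were named for a large spread, a small p or an extreme correlation.

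In sgp130_6637T1 the mean log2(CPM + 1) of the members was 5.375, against 4.639 to 4.942 in the other p130 tumors. Mrps6 had 24.48 CPM there, against 6.046 to 10.46 CPM. Mrpl20 had 94.43 CPM, against 20.73 to 45.71 CPM. Mrps18c, Mrps18b and Mrps18a had 65.51, 35.92 and 36.33 CPM, against 30.67 to 42.78, 12.67 to 21.15 and 19.79 to 27.04 CPM. Mrpl51 had 66.84 CPM (others 39.61 to 49.9), Mrpl11 56.11 CPM (13.74 to 31.04), Mrpl41 33.62 CPM (13.18 to 21.99), Mrps33 53.5 CPM (28.51 to 39.44) and Mrps21 37.97 CPM (15.22 to 25.79).

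Outside that tumor, Mrps2 had 49.63 CPM in sgp130_6638T5, against 28.3 to 34.54 CPM in the other p130 tumors, and Mrpl44 had 37.61 CPM in sgp107_6629T1, against 20.13 to 26.3 CPM in the other p107 tumors.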

How the results depend on the processing

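No adjusted call among members was made in 29 of 30 alternatives to the genotype comparison. DESeq2 called 1 member, Mrps15 (log2 fold change −0.42, adjusted p = 0.0423), and 212 of all genes. The members' lean toward lower values in p107 rested on few tumors. The number of members higher in p107 was 18, and it was 42 (median log2 fold change 0.0104) without sgp130_6637T1, 35 without mouse sgp130_6637, and 43 (median 0.0188) in the 10 tumors with Y-linked transcripts. Over all fits without 1 mouse or tumor it ranged from 12 to 42, the median from −0.165 to 0.0104 and adjusted calls from 0 to 0, and unadjusted p under 0.05 was reached by 2 to 9 members. Such a p was reached by 2 members with counts summed per mouse and by 3 with the mouse as a random block. Mrpl48 was at 0.0328 in the tumors with Y-linked transcripts and Mrpl44 ranged from −0.0204 (without mouse sgp130_6638) to 0.356. Without sgp130_6637T1, an alternative chosen after seeing the data, 6 of the 7 lists of other mitochondrial genes kept more genes lower than higher in p107. Of all genes 51.1% were then higher. The tRNA synthetases were near an even split, with 9 higher and 10 lower (median −0.04), and the import and protease genes had a median of −0.04. Of the 11 regulators 4 were lower in place of 6. The median correlation of a member with the others was 0.65, and 0.41 without sgp130_6637T1. Other scalings and pseudocounts kept the level of sgp130_6637T1 between 0.62 and 0.84 above the median of the other 15 tumors. No paired analysis was possible because the tumor numbers only count the tumors of a mouse, and each mouse has 1 genotype. With 3 and 4 mice, the exact test over mice cannot go below 0.0286.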

Other observations

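Smaller displacements of members with their chromosome were seen in a few of the remaining 170 pairs, picked here after their values were seen. On chromosome 4 in sgp130_6697T2, all 4 members were above the mean of the other 15 tumors (median difference 0.35), as were 78.8% of 815 other genes (median 0.29). On chromosome 13 in sgp130_6638T5, all 5 members were above it (median 0.47), with 65.3% of 476 other genes (median 0.23). In sgp130_6637T1, where members of other chromosomes were high, 2 of the 5 members of chromosome 13 were above their mean, with 39.7% of the other genes of that chromosome (median −0.18). On chromosome 17 in sgp130_6638T4, 7 of 8 members were below it (median −0.41), and 20.6% of 659 other genes were above it (median −0.19). The members did not always follow: on chromosome 17 in sgp130_6638T5, 25.2% of those 659 genes were above the mean (median −0.24), with 5 of 8 members (median 0.08).

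Without sgp130_6637T1, the genes most like the mean level of the members over 15 tumors were Uqcrq (r = 0.95), Amz2 (0.91), Anapc11 (0.91), Timm13 (0.91), Uqcrfs1 (0.90) and Psmb3 (0.88). Uqcrq and Uqcrfs1 belong to complex III of the respiratory chain. Of these 15 tumors, sgp130_6638T5 had the highest mean level of the members, and genes of chromosome 11 were high in it. The part of the chromosomes on which these 6 genes lie was not tested.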
